A study of Mus musculus with 2 samples.

Results

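The 10 genes described here are transcription factors known for the developing thalamus, its neighbour the prethalamus and the habenula: Tcf7l2, Gbx2, Lhx9, Olig3, Rora, Shox2, Sox14, Pou4f1, Irx3 and Irx1. They were taken by symbol from the gene tables, and all 10 were found among the 43346 mouse genes (21473 of them protein-coding) of each table. RNA longer than 200 bases was sequenced from whole forebrain of B6NCrl mouse embryos at embryonic day 13.5, from pooled males and females with no transgene or treatment named. There were 2 libraries in 1 group, each from 10 ng of RNA with added spike-in RNA, and no region was dissected out. By the labels they are biological replicates, with different tissue sample codes but 1 shared donor code, so how far they differ as animals is unknown.

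The thalamus, habenula and pretectum arise from the diencephalon, the caudal part of the forebrain, while the prethalamus lies in front of them across the zona limitans, a signalling ridge that releases Sonic hedgehog. Thalamic progenitors give rise to glutamatergic relay neurons that project to the cortex, and a narrow rostral strip gives GABAergic neurons instead. Tcf7l2, a nuclear partner of beta-catenin in Wnt signalling, marks postmitotic neurons of the thalamus and habenula. None of the 10 genes is known for restriction to the prethalamus, so the levels of prethalamic genes are given from a separate list.

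The libraries held 35378462 (replicate 1) and 36793284 (replicate 2) expected counts, which are estimated read counts with shared reads divided between genes. Levels are in TPM, transcripts in 1000000 after division by length, which can be compared between genes. With 1 group of 2 libraries there was no test between conditions and no p-value is given. Errors are SDs of 2 libraries (n = 2), and 95% counting intervals of ratios (exact Clopper-Pearson) cover the counting error of reads only. No source names molecular identifiers, so separate reads may come from the same molecule and these intervals may be too narrow. Over the 14566 protein-coding genes whose expected count averaged 10 or more, the median log2 ratio of replicate 2 to replicate 1 was -0.10 in TPM + 1 and 0.002 after TMM scaling, a normalisation of library totals. Of these genes, 73.8% were lower in replicate 2 in TPM + 1 and 49.5% after TMM scaling, so counts of direction below are given on both scales where they differ. In this bulk tissue, fewer cells of a type and less RNA per cell cannot be told apart.

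All but Irx1 reached 1 TPM in both libraries, 9 of 10 genes, where 59.0% of all protein-coding genes did so. The mean level ran from 140.7 ± 46.6 TPM for Tcf7l2 down to 0.370 ± 0.0707 TPM for Irx1, a 380-fold range. Tcf7l2 alone made up 55.0% (replicate 1) and 62.7% (replicate 2) of the summed TPM of the 10 genes. In the order of levels, Tcf7l2 stood above Lhx9 and Lhx9 above Gbx2 in both libraries without overlap. Gbx2 and Olig3 overlapped between libraries, and Olig3 stood above Shox2. From Shox2 through Rora, Sox14, Pou4f1 and Irx3, each gene overlapped the next, while Irx3 stood above Irx1.

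**Figure D1:**
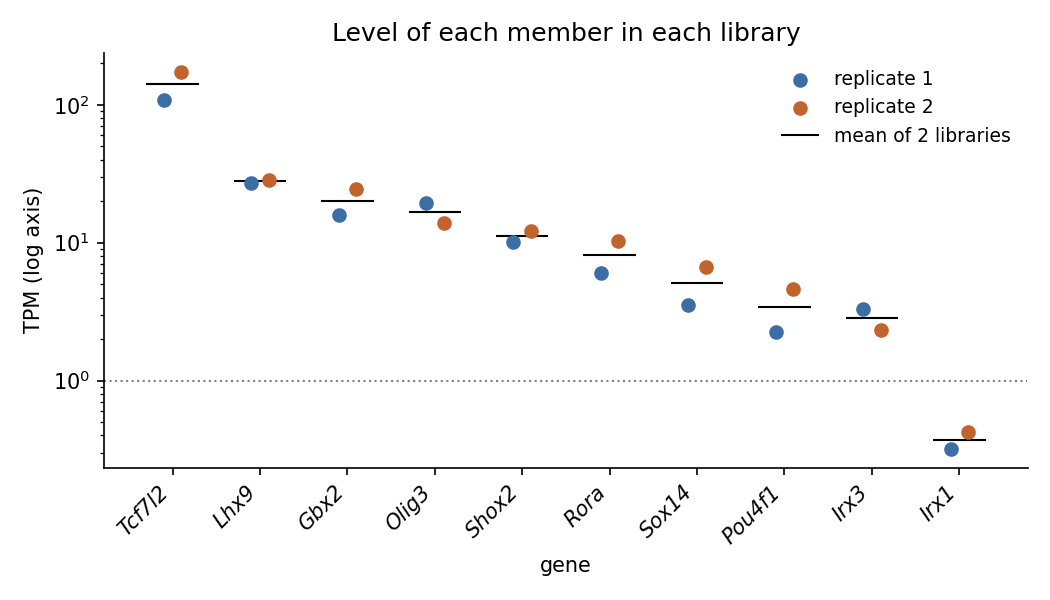
Level of each of the 10 genes in TPM (log axis) in replicate 1 and replicate 2 (points) with the mean of 2 libraries (bars); the dotted line is 1 TPM. Tcf7l2 sits above all others at 108 and 174 TPM, and Irx1 is the only gene under the line.

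Tcf7l2 lies on chromosome 19 (chr19:55741820-55933654, mm10, plus strand). Its level was 108 TPM in replicate 1 (6329 expected counts) and 174 TPM in replicate 2 (11374), so replicate 2 was 1.61-fold higher. It ranked 1131 by mean level among protein-coding genes, of which 94.7% were lower. The authors' own intervals of TPM, whose level is not stated, ran from 102 to 110 and from 166 to 176 and did not overlap.

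Tcf7l2 RNA differs in which end of the protein it encodes, and the deposited tables hold 22 of its transcripts. The coding part of the first coding exon encodes the segment known to bind beta-catenin. Transcripts that begin at internal first exons lack it. This sequence is shown because the main split among the transcripts is whether they hold it (chr19:55742342-55742530, mm10, plus strand, no capitals):
first coding exon: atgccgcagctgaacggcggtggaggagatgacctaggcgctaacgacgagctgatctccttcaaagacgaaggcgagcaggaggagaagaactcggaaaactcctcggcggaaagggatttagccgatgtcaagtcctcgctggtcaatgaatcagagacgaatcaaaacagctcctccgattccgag

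The 15 transcripts with this exon summed to 77.6 (replicate 1) and 129 TPM (replicate 2), or 72.1% and 74.3% of Tcf7l2. The 6 transcripts with an internal first exon summed to 29.4 and 43.9 TPM, or 27.3% and 25.3%. The split was thus nearly the same in the libraries although the gene's level was not. By expected counts the internal group was smaller, at 13.5% and 11.4%, since 5 of the 6 are 830 bases long or shorter and TPM divides by length. Of the internal group, Tcf7l2-218 (12.4 and 20.9 TPM) and Tcf7l2-221 (1.13 and 1.81 TPM) are coding transcripts whose annotated 3′ end is incomplete, so they may be parts of longer RNAs. Tcf7l2-203, with a complete 897-base coding sequence that starts internally, stood at 9.28 and 12.01 TPM, or 8.61% and 6.91% of the gene.

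The annotated internal starts lie 151.5 to 156.7 kb downstream of the gene's first start. RefSeq gives Tcf7l2 a promoter at the first start and another in this internal region, and the 250 bases before each are shown to compare their base composition, with CG dinucleotides in capitals. The first (chr19:55741560-55741809) and the internal one (chr19:55895071-55895320) are both on the plus strand of GRCm38.p6, the assembly also called mm10:
first promoter: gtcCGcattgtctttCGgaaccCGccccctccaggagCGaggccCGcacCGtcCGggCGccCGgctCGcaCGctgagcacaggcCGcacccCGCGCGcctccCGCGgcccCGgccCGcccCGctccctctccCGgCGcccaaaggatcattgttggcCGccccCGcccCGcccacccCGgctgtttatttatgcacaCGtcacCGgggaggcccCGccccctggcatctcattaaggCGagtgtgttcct
internal promoter: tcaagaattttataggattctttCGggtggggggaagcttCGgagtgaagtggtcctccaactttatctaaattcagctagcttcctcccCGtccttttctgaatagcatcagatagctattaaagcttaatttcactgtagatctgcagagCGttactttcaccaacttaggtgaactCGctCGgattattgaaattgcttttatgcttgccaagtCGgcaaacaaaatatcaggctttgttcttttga

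The first holds 30 CG dinucleotides and 72.8% G or C, and the internal one 7 and 40.8%. The internal stretch ends at base 55895320 and directly precedes none of the annotated internal starts. Tcf7l2-218, the highest of that group, begins upstream of this end at 55894534, and Tcf7l2-203 begins downstream at 55895510. Over the 300-base windows (250 before to 50 after each start) of all 32851 RefSeq promoters, the median G or C content was 52.7%. The windows of 9 of the 10 genes were found, 10 in all with both of Tcf7l2, and Irx1 had none. The Wnt-responsive motif CTTTGAA or CTTTGAT, searched on both strands, was in 1 of these 10 windows, that of Sox14, and in 8.65% of all. TAATTA, a core bound by homeodomain proteins that reads the same on both strands, was in 0 of 10 windows and in 5.29% of all. TATAAA, on either strand, was in 3 of 10 and in 13.6% of all. It lay 203 bases before the start in the Shox2 window, 180 in that of Olig3 and 242 in the internal Tcf7l2 window. All these motif matches are of letters in the window only, and no 2 of them fell in the same window.

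Internal splicing of Tcf7l2 near the DNA-binding domain is known to vary by 12 bases (4 codons) at the end of one exon and by 15 bases (5 codons) at the start of another. Both sites are shown with the variable bases in capitals (chr19:55910646-55910681 and chr19:55917339-55917374, mm10, plus strand):
exon end: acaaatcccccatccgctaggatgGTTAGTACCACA
exon start: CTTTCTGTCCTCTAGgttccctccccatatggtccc

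Transcripts that keep the 12 bases took 93.6% and 94.2% of the TPM of the 21 transcripts that span the site. Transcripts that use the 15 bases took 9.89% and 7.36% of the 16 that span theirs. A 69-base exon early in the gene was in 11.7% and 9.96% of the TPM of the 15 transcripts that could hold it. Each of these choices differed by under 3 percentage points between libraries.

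The 3′ end of Tcf7l2 sets the length of the protein tail, and the longest tail carries known contact sites of the repressor CtBP. A 25-base late exon is shown because the stop codon of the leading transcript lies in it (chr19:55927730-55927754, mm10, plus strand, stop codon in capitals):
late exon: tcttTGAatttggaatattatgatg

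Among the 10 transcripts with an annotated stop codon, those that stop in this exon took 84.2% and 85.7% of the TPM. The 2 transcripts with the longest tail took 3.92% and 4.94%, all of it from Tcf7l2-210, since Tcf7l2-213 was at 0 TPM. Those that stop 80 bases into the last exon took 8.45% and 6.97%, mostly from Tcf7l2-202 (4.17 and 6.74 TPM). Stop codons were read from GENCODE M21, where these transcripts differ in length from the deposited ones. Tcf7l2-210 has 2135 bases there and 4126 as deposited, and Tcf7l2-202 has 3193 and 4053. The leading transcript, Tcf7l2-209 (15 exons, 1377 coding bases), had 51.9 and 90.4 TPM, which was 48.2% and 52.1% of the gene. Tcf7l2-218 (11.5% and 12.01%), Tcf7l2-203 and Tcf7l2-206, a retained-intron form (5.39% and 5.11%), were the only others to reach 5% in either library. Coding transcripts together held 81.4% and 82.8% of the Tcf7l2 TPM.

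**Figure D2:**
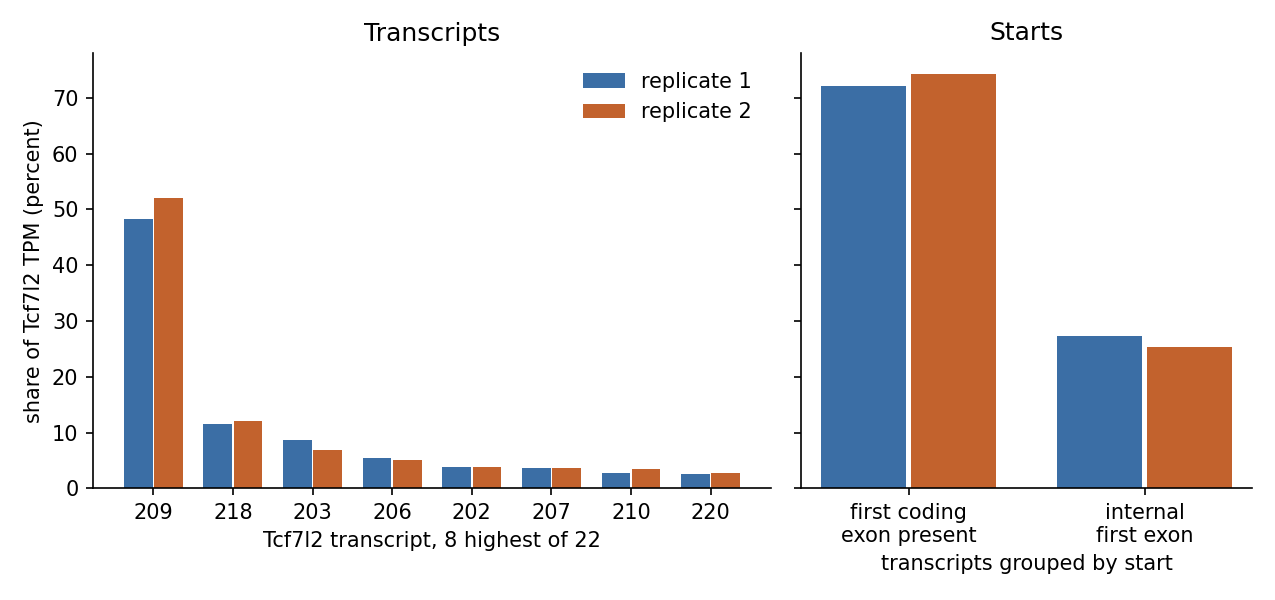
Share of Tcf7l2 TPM in percent for the 8 highest of 22 transcripts (left, numbered as in GENCODE) and for transcripts with the first coding exon or an internal first exon (right), in each library. The bars of the 2 libraries differ little, with Tcf7l2-209 at 48.2% and 52.1%.

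Tcf7l2 was the highest of the 4 TCF/LEF genes and held 74.7% (replicate 1) and 83.4% (replicate 2) of their summed TPM. Lef1, mostly an activator, stood at 23.4 and 21.5 TPM. Tcf7l1, mostly a repressor, stood at 11.3 and 11.3 TPM, and Tcf7 at 1.84 and 1.91 TPM. The other 3 genes of the family thus lay close between the libraries, with Lef1 the farthest apart in TPM at 1.09-fold.

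Of 18 other genes of the Wnt and beta-catenin pathway, 16 reached 1 TPM in both libraries. Ctnnb1, which encodes beta-catenin, was the highest at 461 and 439 TPM, followed by the kinase Gsk3b (120 and 115 TPM) and the co-activator Bcl9 (71.4 and 69.4 TPM). The lowest was Lgr5, a receptor of R-spondins, at 0.120 and 0.210 TPM. Of the 17 with enough counts, 3 were higher and 14 lower in replicate 2 in TPM + 1, with a median log2 ratio of -0.13. After TMM scaling 7 were higher and 10 lower, with a median of -0.05.

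Gbx2, a homeobox gene of postmitotic relay neurons that is needed for their axons to reach the cortex, lies on chromosome 1 (mm10, chr1:89927956-89931179, minus strand). It stood at 15.9 TPM in replicate 1 (628 expected counts) and 24.4 TPM in replicate 2 (1072), a 1.53-fold difference. Its coding transcript held 71.8% and 75.9% of this, 11.4 and 18.5 TPM, and the rest was a retained-intron transcript. Its exons share 946 bases with D130058E05Rik on the opposite strand (1.36 and 1.27 TPM). The strand setting was not given in the sources used here, so reads in the overlap cannot be assigned to a strand. Its paralog Gbx1 was under 1 TPM, at 0.810 and 0.750.

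Lhx9, a LIM-homeobox gene of thalamic progenitors and neurons, was the second highest gene (chr1:138825186-138848577, mm10, minus strand). It gave 27.2 TPM (2218 expected counts) and 28.5 TPM (2509), the closest agreement between libraries among the 10 genes, with an SD of 0.912 TPM. Lhx2, its close paralog, which the cortex also expresses, was higher at 141 and 126 TPM. Lhx9 is known for a splice form with a truncated homeodomain. The 3 transcripts with the shorter coding sequence (963 to 990 bases) held 49.4% and 54.6% of the coding TPM, and the 2 with the longer one (1164 to 1191 bases) held 50.6% and 45.4%. The shares of the 2 kinds crossed between the libraries in TPM, with no interval given, but not by expected counts. Lhx9-201, of the shorter kind, held 50.97% and 45.51% of the gene's expected counts. Of the longer kind, Lhx9-202 held 27.13% and 26.85%, and Lhx9-204 held 9.69% and 6.16%, so by counts the shorter kind led in both libraries. Expected counts are not divided by length, and the transcripts with the shorter coding sequence are the longer RNAs. They have 4551 to 4937 bases, against 3645 for Lhx9-202 and 2065 for Lhx9-204. Within the shorter kind, Lhx9-205 went from 78.44 to 394.39 expected counts and Lhx9-203 from 94.04 to 0.

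Rora, a nuclear receptor that rises in relay neurons as the thalamus matures, stood at 6.01 TPM (402 expected counts) and 10.3 TPM (773), so replicate 2 was 1.71-fold higher. Most of this TPM came from Rora-202, at 3.52 TPM or 58.7% in replicate 1 and 8.07 TPM or 78.4% in replicate 2. Rora-201, the longest at 10878 bases, stood at 0.680 and 1.00 TPM. By expected counts, Rora-202 held 48.6% and 63.1% of the gene and Rora-201 held 40.6% and 33.7%. Its paralog Rorb, a gene of sensory thalamus and cortex, stood at 6.98 and 6.31 TPM, so the order of Rora and Rorb switched between libraries.

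Shox2, a homeobox gene of thalamic neurons and of limb and facial mesenchyme, stood at 10.1 TPM (515 expected counts) and 12.2 TPM (659). The authors' intervals overlapped. Shox2-203, annotated without its 5′ end, held 73.5% and 73.0%. Its exons share 153 bases with Rsrc1 on the opposite strand, which was higher at 24.2 and 26.0 TPM. Cranial mesenchyme genes were present, with Col3a1, a fibrillar collagen, at 81.0 and 84.7 TPM. Their summed level was 174 and 184 TPM over 11 genes, of which 7 reached 1 TPM in both libraries, and the lowest, Tbx15, stood at 0.360 and 0.240 TPM. By gene, 4 were higher and 7 lower in replicate 2, with 0 past 1.5-fold higher, 4 past 1.5-fold lower (3 after TMM scaling) and a median log2 ratio of TPM + 1 of -0.10. Their part in the Shox2 level was not tested.

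Olig3, a basic helix-loop-helix gene of thalamic progenitors and of the zona limitans, was higher in replicate 1. It gave 19.5 TPM (844 expected counts) in replicate 1 and 13.9 TPM (655) in replicate 2. It led the Olig family with 60.3% and 51.1% of the summed TPM, ahead of Olig1 (7.33 and 6.18 TPM) and Olig2 (5.52 and 7.09 TPM), a gene of rostral thalamic and many basal progenitors.

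Sox14 marks the GABAergic neurons of the rostral thalamus, among other sites. It stood at 3.53 TPM (149 expected counts) and 6.65 TPM (317), so replicate 2 was 1.88-fold higher. Its paralog Sox21, broadly expressed in progenitors, was above it at 7.47 and 9.41 TPM. Of 7 other rostral thalamic GABAergic genes, 6 were higher and 1 lower in replicate 2, with a median log2 ratio of 0.04 in TPM + 1 and 0.17 after TMM scaling. Among them, Helt stood at 5.44 and 5.54 TPM and Nkx2-2 at 2.72 and 2.51 TPM, and Tal1 was the lowest at 0.680 and 0.710 TPM. One of the 7, Gata3, passed 1.5-fold, at 1.19 and 2.67 TPM (named after its values were seen). It acts with Tal1 in GABAergic neurons of this region and beyond.

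Pou4f1, known as Brn3a and a defining factor of habenular neurons, stood at 2.24 TPM (111 expected counts) and 4.58 TPM (217), the largest TPM fold among the 10 genes at 2.04. Most of this TPM came from Pou4f1-202, a noncoding transcript of 799 bases (1.30 and 3.01 TPM, from 20.3 and 51.1 expected counts). The coding transcript Pou4f1-201 (4445 bases) stood at 0.940 and 1.58 TPM, from 90.7 and 166 expected counts. It thus held more of the counts and less of the TPM, and was 1.68-fold higher in replicate 2. By the TPM of coding transcripts alone, the fold was larger for Rora (2.16) and Sox14 (1.88) than for Pou4f1. Pou4f2 was at 0.04 and 0.01 TPM, and Pou4f3 at 0.140 TPM from 7 counts and at 0 in replicate 2, where 3 counts would be 0.0547 TPM.

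Pou4f1 is also known from sensory ganglia. Of 9 measured sensory ganglia genes, 0 reached 1 TPM in both libraries, their summed TPM was 2.87 and 1.83, and Prph was the highest at 1.01 and 0.770. These values lie near the floor, and the part of sensory ganglia in the Pou4f1 level was not tested. Of 10 other habenula genes, 8 had enough counts, of which 7 were lower and 1 was higher in replicate 2 in TPM + 1, and 6 and 2 after TMM scaling. The one higher in TPM + 1 was Gng8, a G-protein subunit, at 3.12 and 5.93 TPM (named after its values were seen). It was the only one past 1.5-fold higher, while 3 passed 1.5-fold lower (2 after TMM scaling). Tac1, the precursor of substance P, led the list at 40.3 and 29.2 TPM. Nhlh2 (28.93 and 21.97 TPM) and Etv1 (21.4 and 20.7 TPM) followed. The nicotinic receptor subunit gene Chrnb3 was the lowest, from 0 and 2 expected counts. Several of these genes are expressed elsewhere in the forebrain.

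The Irx genes pattern the caudal diencephalon and midbrain. Irx3 stood at 3.31 TPM (184 expected counts) in replicate 1 and 2.34 TPM (142) in replicate 2, with intervals that did not overlap. It shares 124 exonic bases with the antisense gene Irx3os (0.320 and 0.130 TPM). Irx1 stood at 0.320 TPM (16 expected counts) and 0.420 TPM (23), too few for its ratio to be told from 1, with a 95% counting interval on the log2 scale from -0.46 to 1.54. Among the paralogs, Irx2 stood at 1.07 and 2.41 TPM, Irx5 at 2.05 and 1.06 TPM, Irx6 at 0.590 and 0.230 TPM and Irx4 at 0 and 0.0400 TPM. Irx3, Irx5 and Irx6, neighbours on chromosome 8, gave lower TPM in replicate 2, and Irx1, Irx2 and Irx4, neighbours on chromosome 13, gave higher TPM, with at most 79 expected counts in any library for the chromosome 13 genes.

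The 10 genes did not differ between the libraries in 1 direction. In TPM, 5 of 10 (Pou4f1, Sox14, Rora, Tcf7l2 and Gbx2) were at least 1.5-fold higher in replicate 2, where 2.06% of the 14566 genes were, and 0 of 10 were that much lower, where 6.59% were. With TMM-scaled counts the same numbers, 5 and 0, passed, and over all genes 2.39% were higher and 4.69% lower. Going from TPM to TMM-scaled counts thus moved the split over all genes from 300 higher and 960 lower to 348 and 683. The mouse gene totals of 34707278 and 35818378 became nearly equal, at 35239202 and 35277712, once multiplied by the TMM factors. Scaled counts are not divided by length. By the authors' intervals, 5 of 10 were apart and higher in replicate 2 (3.34% of all) and 2 of 10, Olig3 and Irx3, were apart and lower (22.6% of all). The intervals of Lhx9, Shox2 and Irx1 overlapped. The median log2 ratio of the 10 genes was 0.42 in TPM + 1 and 0.63 after TMM scaling. The middle 90% of all genes ran from -0.41 to 0.21 in TPM + 1, a range that held Lhx9, Irx1 and Irx3.

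After TMM scaling the log2 ratio was 1.09 for Sox14 (95% counting interval 0.80 to 1.38), 0.97 for Pou4f1 (0.63 to 1.31) and 0.94 for Rora (0.77 to 1.12). It was 0.84 for Tcf7l2 (0.80 to 0.89) and 0.77 for Gbx2 (0.63 to 0.91). These 5 genes lay close together, and the counting interval of Tcf7l2 overlapped those of the other 4. Shox2 (0.35, from 0.19 to 0.52) and Lhx9 (0.18, from 0.09 to 0.26) were above 0 by less. Olig3 (-0.37, from -0.52 to -0.22) and Irx3 (-0.38, from -0.70 to -0.05) were below 0. The ratio of Tcf7l2 to Gbx2 in TPM was 6.79 and 7.13 in the libraries.

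**Figure D3:**
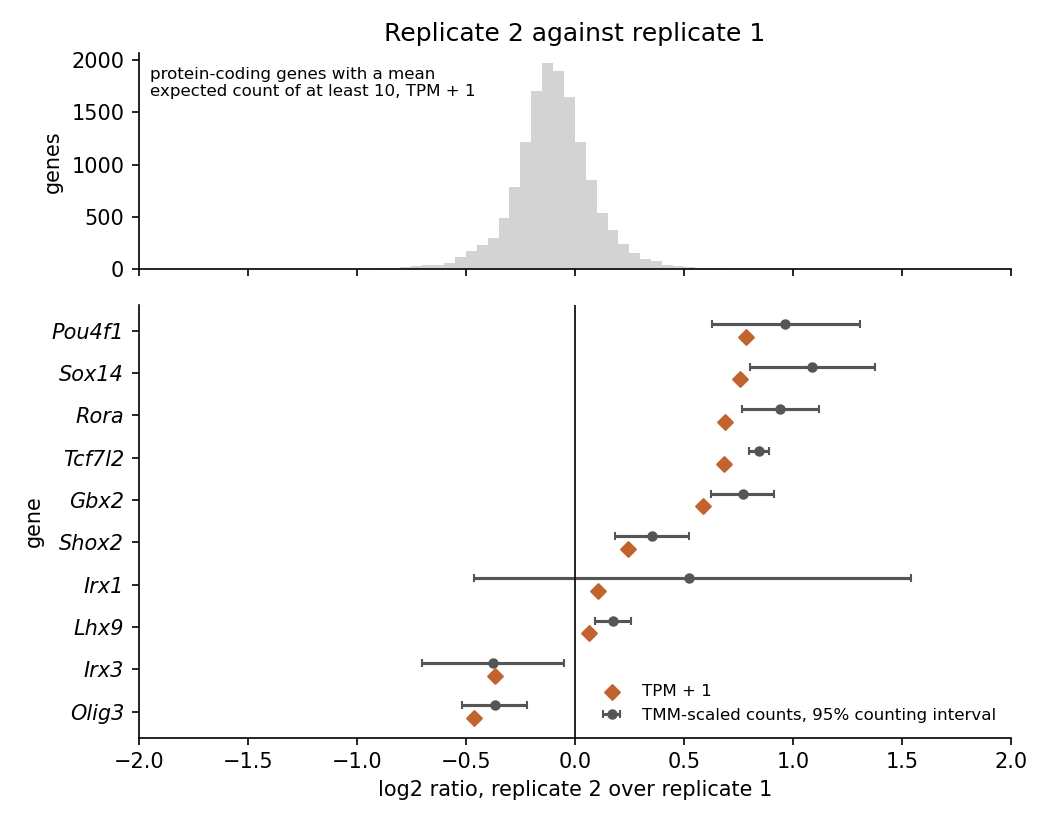
Log2 ratio of replicate 2 to replicate 1: top, protein-coding genes whose expected count averaged 10 or more; bottom, each of the 10 genes from TPM + 1 (diamonds) and from TMM-scaled counts with the 95% counting interval (circles). Pou4f1, Sox14, Rora, Tcf7l2 and Gbx2 lie to the right of most genes, and Olig3 and Irx3 lie left of 0.

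The other lists of the region give the setting of these values, and no difference between lists was tested. Some genes stand in several lists, so the lists are not independent. For example, Lhx5, Calb2 and Nhlh2 of the Cajal-Retzius list are also in the prethalamus, glutamatergic thalamus and habenula lists. Of 10 other genes of glutamatergic thalamus, 0 passed 1.5-fold in either direction, and the median log2 ratio was -0.15 in TPM + 1 and -0.02 after TMM scaling. In TPM + 1, 2 were higher and 8 lower in replicate 2, and after TMM scaling 5 and 5. Most of them are also used elsewhere in the forebrain: Lhx2, the proneural gene Neurog2 (103 and 126 TPM) and the calcium-binding protein gene Calb2 (50.5 and 40.6 TPM) were the highest. Olig2, which was named above for rostral thalamic progenitors and so is not particular to the glutamatergic thalamus, was the lowest. Of 13 prethalamus genes, all reached 1 TPM in both libraries, and 7 were higher and 6 lower in replicate 2 in TPM + 1, with a median log2 ratio of 0.01. After TMM scaling 10 were higher and 3 lower, with a median of 0.20. Dlx1 (233 and 235 TPM), Meis2 (107 and 107 TPM) and Pax6 (72.8 and 75.7 TPM), which the ganglionic eminences or the cortex also express, led this list, and Lhx1 was the lowest at 6.93 and 6.25 TPM. Among these, Fezf1 (33.8 and 11.6 TPM) and Lhx5 (13.8 and 8.12 TPM), passed 1.5-fold, both lower in replicate 2 (named after their values were seen).

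Signals of the zona limitans and diencephalon and genes of bordering tissue were mostly lower in replicate 2. Of 9 signalling genes with enough counts, 8 were lower and 1 higher in TPM + 1, with a median log2 ratio of -0.32, and 7 and 2 after TMM scaling, with a median of -0.30. Wnt7b (73.2 and 64.6 TPM), Fgf15 (48.1 and 35.9 TPM) and the hedgehog receptor gene Ptch1 (9.41 and 7.33 TPM) were the highest, and Wnt1 the lowest, with 1 and 0 expected counts. Of 15 hem, roof plate and choroid plexus genes, all were lower on both scales, 11 passed 1.5-fold (8 after TMM scaling), and the median was -0.64 (-0.61 after TMM scaling), with a summed level of 566 and 312 TPM. Ttr, the thyroid hormone carrier of choroid plexus, led this list at 420 and 217 TPM. All 8 Cajal-Retzius genes were lower (median -0.38 on both scales, summed level 144 and 110 TPM), as were the 4 pretectum and midbrain genes with enough counts (median -0.51, and -0.80 after TMM scaling). Otx2, which the choroid plexus also expresses, led the latter at 29.9 and 19.7 TPM, and 1 of 11 reached 1 TPM in both libraries.

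Genes of 2 telencephalic regions were mostly higher in replicate 2. The pallium list had 7 higher and 1 lower (median 0.28, and 0.40 after TMM scaling, summed level 439 and 601 TPM), and Neurod6, a gene of young cortical neurons, led it at 145 and 257 TPM. The subpallium list had 5 higher and 3 lower (median 0.22, and 0.41 after TMM scaling, summed level 174 and 199 TPM). In the hypothalamus list 6 genes were at least 1.5-fold higher and 3 at least 1.5-fold lower, with a median of 0.31 in TPM + 1 and 0.83 after TMM scaling, above the 0.63 of the 10 genes on that scale. The part of these tissues in the differences of the 10 genes was not tested, and the share of each region in each library was not measured.

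**Figure D4:**
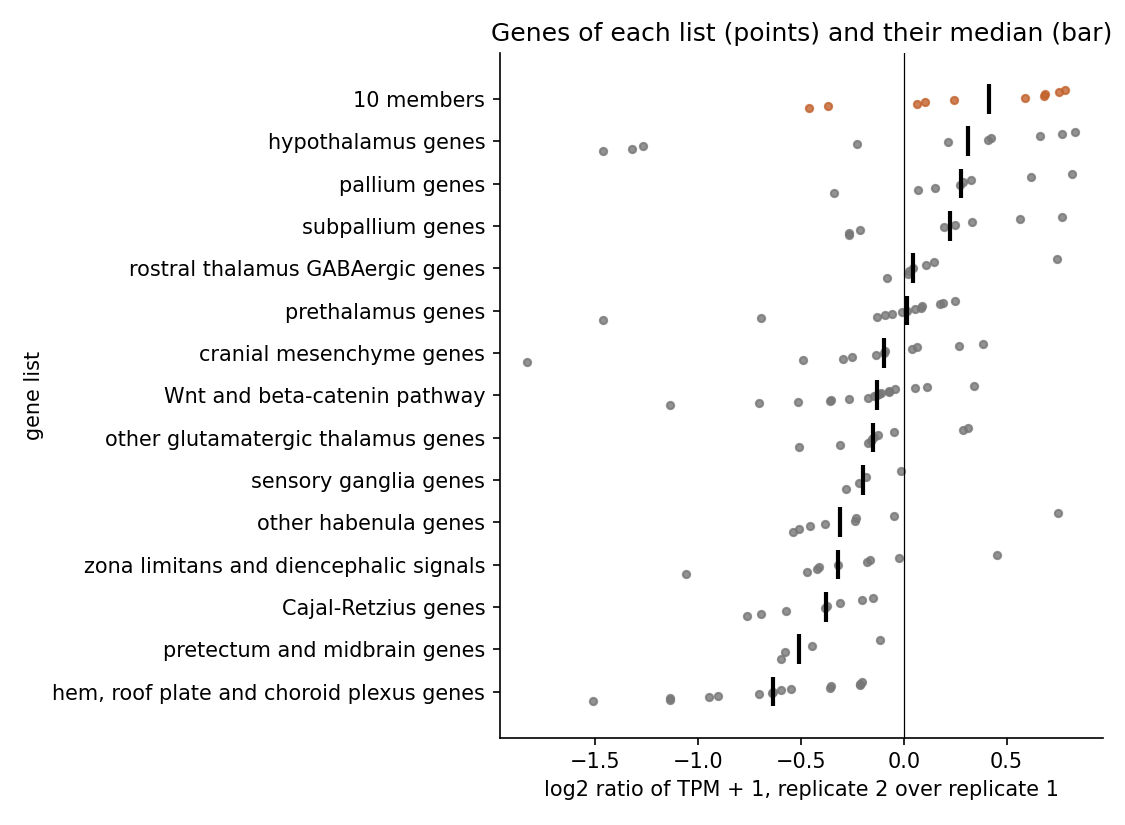
Log2 ratio of TPM + 1, replicate 2 over replicate 1, for the genes of each list whose expected count averaged 10 or more (points) and the list median (bar). On this scale the median of the 10 genes (top) is 0.42 and that of the hem, roof plate and choroid plexus list (bottom) is -0.64; after TMM scaling the hypothalamus list lies higher, at 0.83, and the pretectum and midbrain list lower, at -0.80.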

How the data were processed

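Forebrain RNA of 2 libraries was quantified by the authors on mm10 with GENCODE M4, per the deposited metadata. Aligner, tool version and strand setting were not given in the sources used here. As the file headers name them, deposited expected counts are estimated reads per feature from the authors, deposited TPM and FPKM values are scaled by effective length and total, a deposited percent column gives the share of a transcript in its gene, and 2 deposited columns hold interval bounds of TPM, a score whose level is not stated. Shares were recomputed from TPM.

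Identifiers were matched to GENCODE M21 (42462 of 43346 mouse genes). Of the 22 Tcf7l2 transcripts, 17 have the same length in both annotations. Rounded expected counts were scaled by TMM (edgeR 4.0.16; DESeq2 1.42.0 as alternative, R 4.3.3) after a run on simulated data. Python 3.11.15, pandas 2.3.3 and scipy 1.17.1 did the rest. Differences use TPM + 1 and genes whose expected count averaged 10 or more; folds use TPM without a pseudocount. The replicates differed by more than counting noise (chi-square of 10.5 per degree of freedom); whether they share tissue or RNA cannot be told from this.

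The 10 genes and all lists were chosen with earlier results of these data known. Named are all 10 genes, their paralogs, the 3 highest and the lowest of a list (fewer in places), Tcf7l2 transcripts of at least 5% in either library and the leading transcript of other genes. Other genes and transcripts named for their values, and transcripts grouped by structure, fall outside that rule. Some genes that the rule names are left out. The listed sensory ganglia gene Drgx was not matched. Alternatives were other thresholds, pseudocounts, scalings and estimates, and leaving out each library.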

Additional observations from a re-analysis of the deposited data

How the results depend on the processing

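The count of genes at 1 TPM or more in both libraries was 9 at thresholds of 0.5 and 2 TPM, 6 at 5 TPM, and 9 with the posterior mean TPM or either library alone. Genes past the fold threshold and higher in replicate 2 numbered 6 at a difference of 25% and 1 at 2-fold, and those lower numbered 2 at a difference of 25% and 0 at 2-fold. These counts stayed at 5 and 0 with TMM scaling, no count minimum or a minimum of 100. Beyond the main settings and TMM scaling, no share over all genes is given beside any of these counts, so they cannot be set against it. All 40 ratios of the 10 genes under alternatives kept their sign, and 10 of them moved by more than the counting error. By share of expected counts instead of TPM, Tcf7l2-209 moved from 50.1% to 66.2% of the gene and the internal first exons from 26.3% to 12.4%. The libraries alone gave 48.2% to 52.1% and 25.3% to 27.3%. The length division by construction sets this difference. No paired analysis was possible because there is 1 group. Depth limits Irx1, with 16 and 23 expected counts, most.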
